A study of Mus musculus with 8 samples.

Results

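The Bcl2 family genes of mitochondrial survival and death were followed through 4 sorted subsets of mouse medullary thymic epithelial cells (mTECs). The genes were chosen by name from the raw count table, after its Ensembl identifiers had been matched to mouse GENCODE symbols. All 10 were found among the 25466 genes of the table: the guardians Bcl2, Bcl2l1 and Mcl1, the effectors Bax and Bak1, and the BH3-only genes Bcl2l11, Bbc3, Pmaip1, Bid and Bik. No measured value entered the rule for this choice, but earlier results of these data were known when it was made. All 10 passed the filter on low counts, and the lowest count of any of them in a library was 29.

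The study sorted wild-type BL6N6 mice of 4 to 6 weeks of age for CD45neg Epcampos CDR1neg cells of the thymus, which it took as mTECs. It then separated them by surface Tspan8, a tetraspanin that stands for a tissue-restricted antigen, and by major histocompatibility complex class II (MHCII). Surface MHCII is low in immature mTECs, high in mature mTECs and low again in late mTECs. The 4 subsets, all of the same genotype and without treatment, were Tspan8negMHCIIlo, Tspan8negMHCIIhi, Tspan8posMHCIIhi and Tspan8posMHCIIlo, each with 2 libraries labelled as biological replicates. The comparison of Tspan8pos with Tspan8neg cells addressed genes expressed together with a tissue-restricted antigen, and the comparison of MHCIIhi with MHCIIlo cells addressed maturation. The paper proposes an order of stages in which Tspan8posMHCIIlo holds late mTECs, past the Aire stage. It describes Tspan8negMHCIIlo as a mixture of immature mTECs and mimetic mTECs, the latter including tuft cells. How many mice went into a library, and whether both replicates or several subsets came from the same animals, was not given in the sources used here.

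Bcl2 family proteins decide whether the outer mitochondrial membrane stays intact. The guardians hold the effectors Bax and Bak1 in check, the BH3-only proteins bind guardians or activate effectors, and active Bax and Bak1 form the pores that release cytochrome c and start the caspase cascade. In the thymus the family is best known for the death of self-reactive thymocytes, where Bcl2l11 is a main executor, while mTECs themselves are short-lived cells that turn over continuously. Messenger RNA was measured here, and these proteins are also controlled by degradation, cleavage and phosphorylation, which these data do not show.

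In GENCODE vM21 annotation of build GRCm38, the guardian genes are Bcl2 (ENSMUSG00000057329.7) at chr1:106538178-106714274 on the minus strand, Bcl2l1 (ENSMUSG00000007659.18) at chr2:152780668-152831728 on the minus strand and Mcl1 (ENSMUSG00000038612.16) at chr3:95658788-95663176 on the plus strand. The effector genes are Bax (ENSMUSG00000003873.11) at chr7:45461697-45466898 on the minus strand and Bak1 (ENSMUSG00000057789.13) at chr17:27019810-27029009 on the minus strand. Of the BH3-only genes, Bcl2l11 (ENSMUSG00000027381.16) at chr2:128126038-128162547 on the plus strand, Bbc3 (ENSMUSG00000002083.13) at chr7:16308393-16318205 on the plus strand, Bid (ENSMUSG00000004446.12) at chr6:120891930-120916853 on the minus strand and Bik (ENSMUSG00000016758.3) at chr15:83526862-83544634 on the plus strand are placed in the same way, and Pmaip1 has the identifier ENSMUSG00000024521.7. Counts cover all annotated transcripts of a gene, so that isoforms such as those of Bcl2l1 or Bcl2l11 are not separated.

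Total counts ran from 1941518 to 7783841 per library, both extremes in the Tspan8posMHCIIlo subset, so that 3 counts correspond to between 0.385 and 1.55 CPM, the unit of counts scaled to a common library total. These limits cover counting error only. Summed CPM of 7 medullary epithelial markers lay between 5254 and 9714 in all libraries, and Tspan8 was at 3.65 to 14.6 CPM in the Tspan8neg and 347 to 404 CPM in the Tspan8pos libraries. The MHCII gene H2-Ab1 was at 4988 and 5098 CPM in Tspan8negMHCIIhi, 2431 and 2619 in Tspan8posMHCIIhi, 2074 and 1699.9 in Tspan8negMHCIIlo and 518 and 489 in Tspan8posMHCIIlo. Messenger RNA of 11 thymocyte markers was present in every subset, with the largest sums of 498 and 1404 CPM in the 2 Tspan8negMHCIIlo libraries against 91.0 to 246 CPM in the other 6. The sum of 5 cortical epithelial markers was also highest there, at 1073 and 853 CPM against 303 to 491 CPM, of which Ctsl made up 953 and 605 CPM. In bulk samples of this kind, fewer cells of a type that expresses a gene and less RNA of that gene per cell cannot be told apart.

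All levels below are CPM after TMM scaling, in the order replicate 1 and replicate 2, with the mean ± SD of n = 2 where a mean is given. A gene was called when the edgeR quasi-likelihood test gave an adjusted p under 0.01 and the log2 fold change was at least 1 in either direction. Of the 10 genes, 5 were called in at least 1 of the 4 comparisons along Tspan8 or MHCII (Bcl2, Bcl2l1, Bcl2l11, Pmaip1 and Bik) and 5 were called in none (Mcl1, Bax, Bak1, Bbc3 and Bid), while 39.5% of all genes tested were called in at least 1. With 2 libraries against 2, an exact permutation test can never give a p of 0.05. The p-values of the fit rest on a spread between replicate libraries that was estimated over all 4 subsets, with information shared across genes.

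**Figure D1:**
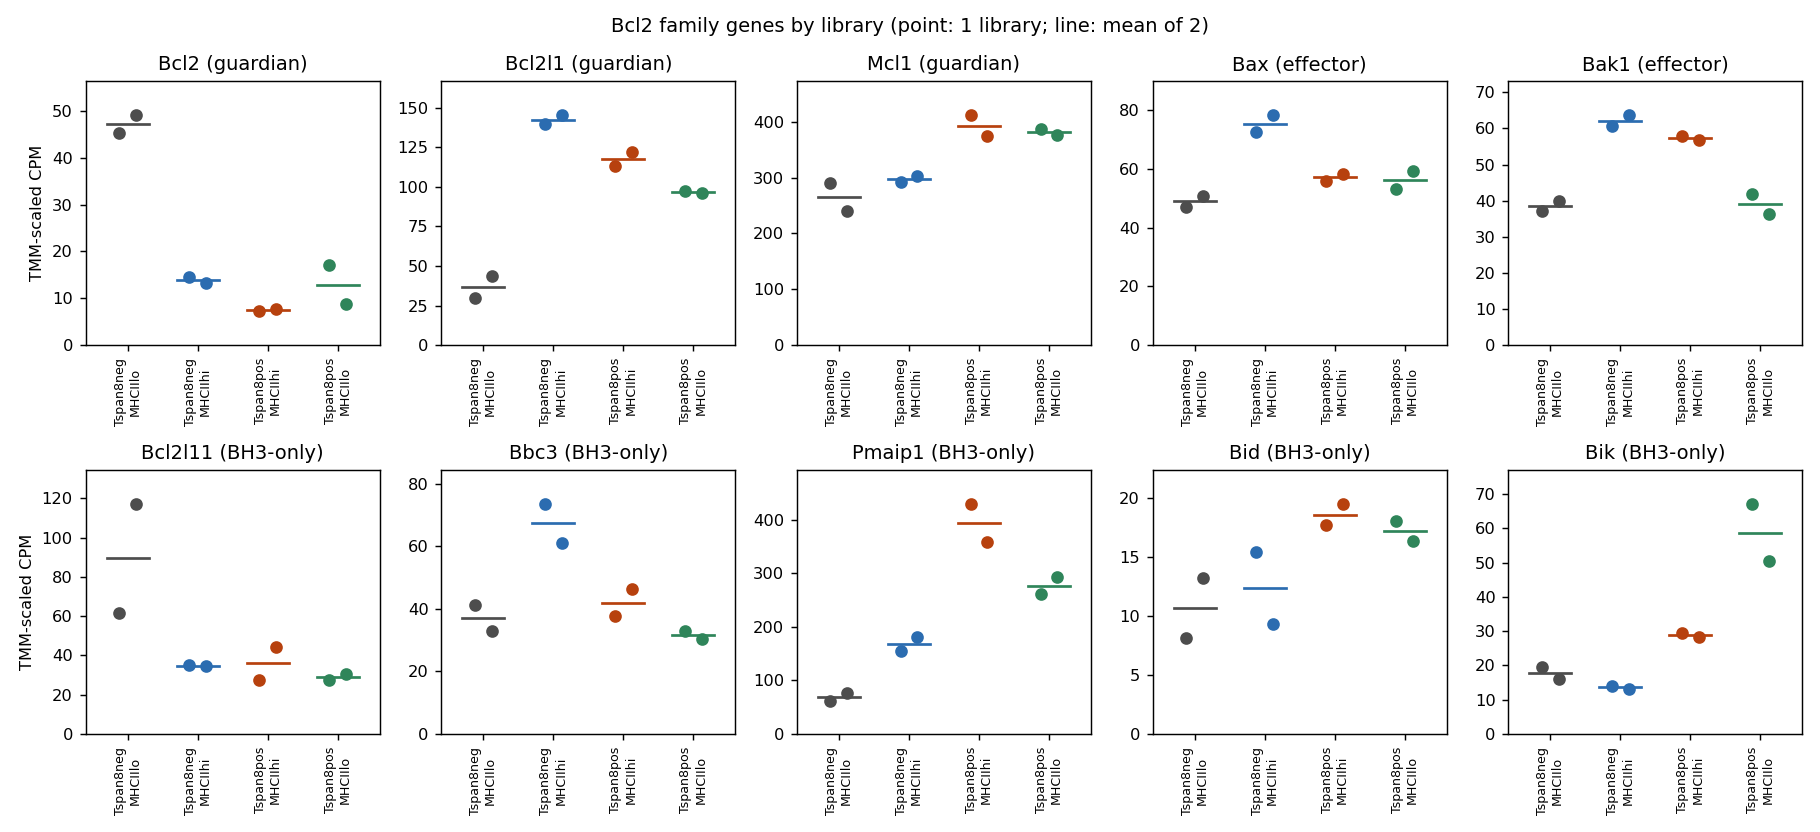
TMM-scaled CPM (vertical axes, each from 0) of the 10 Bcl2 family genes in the 4 mTEC subsets (horizontal axes); each point is 1 library and each line the mean of 2. Bcl2 and Bcl2l11 are highest in Tspan8negMHCIIlo, Bcl2l1 is lowest there, Pmaip1 is highest in Tspan8posMHCIIhi (429.6 and 358 CPM) and Bik in Tspan8posMHCIIlo (67.1 and 50.5 CPM).

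The guardians bind and neutralise the killers of the family, and 2 of the 3 moved in opposite directions between the subsets. Bcl2, the founding survival gene, was at 45.2 and 49.0 CPM in Tspan8negMHCIIlo, 14.6 and 13.2 in Tspan8negMHCIIhi, 7.37 and 7.72 in Tspan8posMHCIIhi, and 17.0 and 8.87 in Tspan8posMHCIIlo. Both Tspan8negMHCIIlo libraries stood above the other 6, with no overlap. Bcl2 fell by 2.01 on the log2 scale (SE 0.28, edgeR adjusted p = 0.000186) from Tspan8neg to Tspan8pos cells within MHCIIlo. It fell by 1.77 (SE 0.26, edgeR adjusted p = 0.000270) from MHCIIlo to MHCIIhi cells within Tspan8neg. The remaining subsets were not separated from each other: the log2 difference was -0.87 (SE 0.29, edgeR adjusted p = 0.0330) between Tspan8pos and Tspan8neg cells within MHCIIhi and -0.63 (SE 0.31, edgeR adjusted p = 0.205) between MHCIIhi and MHCIIlo cells within Tspan8pos. The order of Bcl2 from high to low was therefore Tspan8negMHCIIlo, then the other 3 subsets with means of 13.9 ± 0.958, 13.0 ± 5.77 and 7.54 ± 0.249 CPM whose neighbours did not differ beyond the test. Part of Bcl2 is overlapped by an exon of D630008O14Rik on the opposite strand, and whether the counting used strand is not settled.

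Bcl2l1 encodes Bcl-xL, the guardian that many epithelia rely on. It was at 30.1 and 43.4 CPM in Tspan8negMHCIIlo, 139.7 and 145 in Tspan8negMHCIIhi, 113 and 122 in Tspan8posMHCIIhi, and 97.3 and 96.2 in Tspan8posMHCIIlo. Both Tspan8negMHCIIlo libraries were far below the other 6, the lowest of which was at 96.2 CPM. Bcl2l1 rose by 1.95 on the log2 scale, or 3.85-fold (SE 0.17, edgeR adjusted p = 1.04e-05), with MHCII within Tspan8neg cells. It rose by 1.39, or 2.62-fold (SE 0.17, edgeR adjusted p = 9.57e-05), with Tspan8 within MHCIIlo cells. Within MHCIIhi cells the log2 difference between Tspan8pos and Tspan8neg was -0.27 (SE 0.16, edgeR adjusted p = 0.199), and within Tspan8pos cells it was 0.28 between MHCIIhi and MHCIIlo (SE 0.16, edgeR adjusted p = 0.282). The difference between the Tspan8 effects at low and high MHCII was 1.66 on the log2 scale (SE 0.24, edgeR adjusted p = 0.00167). Bcl2l1 was the 1 gene of the 10 called in that interaction, against 4.60% of all 17006 genes tested. The adjusted p of this interaction was 0.0131 without Tspan8posMHCIIhi replicate 1, 0.0107 without Tspan8posMHCIIlo replicate 1 and 0.0170 without Tspan8posMHCIIlo replicate 2, with log2 values of 1.58, 1.62 and 1.66.

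Mcl1, a guardian with a short-lived protein, had the highest mean CPM of the 10 genes. It was at 290.1 and 240.0 CPM in Tspan8negMHCIIlo, 292 and 302 in Tspan8negMHCIIhi, 411 and 374 in Tspan8posMHCIIhi, and 386 and 376 in Tspan8posMHCIIlo. All 4 Tspan8pos libraries exceeded all 4 Tspan8neg libraries. The log2 differences of Tspan8pos against Tspan8neg were 0.52 within MHCIIlo (SE 0.13, edgeR adjusted p = 0.00933) and 0.40 within MHCIIhi (SE 0.13, edgeR adjusted p = 0.0340), both under the fold limit for a call. Along MHCII the log2 differences were 0.17 and 0.04.

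The promoters of Bcl2 and Bcl2l11, the 2 genes highest in Tspan8negMHCIIlo, are shown with that of Bcl2l1, which was lowest there. Each is the stretch of 250 bases before the outermost start in the RefSeq table of build GRCm38.p6, read 5′ to 3′ along the gene. Capitals mark matches on either strand to the letters GGGNNNNNCC of an NF-kB-like motif, to the ETS-like motif CCGGAAG or to the KLF-like motif CACCC, and neighbouring or overlapping matches run together. Windows were read for 8 of the 10 genes, and not for Bik or Pmaip1. The Bcl2 window is chr1:106714291-106714540 on the minus strand, the Bcl2l11 window chr2:128125788-128126037 on the plus strand and the Bcl2l1 window chr2:152831729-152831978 on the minus strand.
Bcl2: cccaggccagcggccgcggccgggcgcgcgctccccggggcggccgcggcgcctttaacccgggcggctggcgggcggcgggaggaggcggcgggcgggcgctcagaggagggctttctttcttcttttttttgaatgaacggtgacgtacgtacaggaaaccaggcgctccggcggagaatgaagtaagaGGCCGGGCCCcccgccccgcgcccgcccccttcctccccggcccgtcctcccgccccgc
Bcl2l11: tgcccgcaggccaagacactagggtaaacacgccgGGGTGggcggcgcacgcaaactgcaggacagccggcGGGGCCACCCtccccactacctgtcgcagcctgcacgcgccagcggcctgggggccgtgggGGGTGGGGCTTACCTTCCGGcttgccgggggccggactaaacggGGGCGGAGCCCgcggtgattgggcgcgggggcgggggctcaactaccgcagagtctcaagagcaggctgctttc
Bcl2l1: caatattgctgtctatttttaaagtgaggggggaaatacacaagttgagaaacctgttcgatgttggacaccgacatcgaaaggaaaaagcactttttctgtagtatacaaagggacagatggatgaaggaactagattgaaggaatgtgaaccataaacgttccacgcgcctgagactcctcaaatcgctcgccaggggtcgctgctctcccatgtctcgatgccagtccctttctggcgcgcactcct
The Bcl2 window held 1 match to the NF-kB-like letters, and the Bcl2l11 window held 4 of them, 1 ETS-like and 3 KLF-like matches. The Bcl2l1 window held none of the 3, which says only that these letters are not in it. Of the windows before the 2 inner RefSeq starts of Bcl2l1, one held 2 NF-kB-like matches and each held 1 KLF-like match. Over all 32851 windows of this length in the table, 45.8% held the NF-kB-like, 6.91% the ETS-like and 52.0% the KLF-like letters. The matches are a description of sequence, not of bound sites.

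The effectors form the pores, and neither Bax nor Bak1 was called in any comparison. Bax was at 47.2 and 50.9 CPM in Tspan8negMHCIIlo, 72.6 and 78.2 in Tspan8negMHCIIhi, 56.0 and 58.3 in Tspan8posMHCIIhi, and 53.3 and 59.4 in Tspan8posMHCIIlo. Bak1 was at 37.1 and 39.8, 60.7 and 63.6, 58.0 and 56.7, and 41.8 and 36.4 CPM in the same order of subsets. Both were thus highest in Tspan8negMHCIIhi, and Bak1 was also above the MHCIIlo libraries in Tspan8posMHCIIhi. Between MHCIIhi and MHCIIlo within Tspan8neg cells, the log2 difference was 0.62 for Bax (SE 0.14, edgeR adjusted p = 0.00450) and 0.69 for Bak1 (SE 0.15, edgeR adjusted p = 0.00295), which passed the p limit but not the fold limit. Within Tspan8pos cells the same difference was 0.01 for Bax and 0.57 for Bak1 (SE 0.15, edgeR adjusted p = 0.0231). Exons of Bak1 overlap Ggnbp1 on the opposite strand and those of Bax overlap the transcript Gm45808 on the same strand, so their counts are less certain than those of Bcl2l1, Mcl1, Bcl2l11, Bbc3 and Pmaip1, which overlap no other annotated gene.

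The BH3-only genes sense damage and signal loss, and the 5 differed in the subset where their mean was highest, except that Pmaip1 and Bid shared the same order of subset means. Pmaip1 encodes Noxa, a p53 target that binds Mcl1 preferentially, and spanned the widest range of the 10 genes in CPM. It was at 60.7 and 75.7 CPM in Tspan8negMHCIIlo, 155 and 181 in Tspan8negMHCIIhi, 429.6 and 358 in Tspan8posMHCIIhi, and 261 and 293 in Tspan8posMHCIIlo. The ranges of the 4 subsets did not overlap. Pmaip1 rose 4.06-fold with Tspan8 within MHCIIlo cells (log2 2.02, SE 0.17, edgeR adjusted p = 4.43e-06) and 2.34-fold within MHCIIhi cells (log2 1.23, SE 0.16, edgeR adjusted p = 0.000128). It rose 2.46-fold with MHCII within Tspan8neg cells (log2 1.301, SE 0.16, edgeR adjusted p = 0.000113). Within Tspan8pos cells the log2 difference with MHCII was 0.51 (SE 0.16, edgeR adjusted p = 0.0493), so that the 2 highest subsets were not separated by the test.

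Bik, a BH3-only protein of the endoplasmic reticulum, had its highest level in Tspan8posMHCIIlo. It was at 19.4 and 16.0 CPM in Tspan8negMHCIIlo, 14.1 and 13.1 in Tspan8negMHCIIhi, 29.5 and 28.2 in Tspan8posMHCIIhi, and 67.1 and 50.5 in Tspan8posMHCIIlo. Bik rose 3.26-fold with Tspan8 within MHCIIlo cells (log2 1.71, SE 0.20, edgeR adjusted p = 6.93e-05) and 2.13-fold within MHCIIhi cells (log2 1.09, SE 0.20, edgeR adjusted p = 0.00156). The second call was lost without Tspan8negMHCIIhi replicate 1 (edgeR adjusted p = 0.0190), without Tspan8negMHCIIhi replicate 2 (log2 0.95, edgeR adjusted p = 0.0354) or without Tspan8posMHCIIhi replicate 1 (edgeR adjusted p = 0.0139). Between MHCIIhi and MHCIIlo within Tspan8pos cells the log2 difference was -0.998 (SE 0.19, edgeR adjusted p = 0.00465), just inside the fold limit.

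Bcl2l11 encodes Bim, which binds every guardian and is induced by loss of survival signals. It was at 61.8 and 117 CPM in Tspan8negMHCIIlo, 34.9 and 34.6 in Tspan8negMHCIIhi, 27.5 and 44.5 in Tspan8posMHCIIhi, and 27.5 and 30.6 in Tspan8posMHCIIlo. Both Tspan8negMHCIIlo libraries were above the other 6, but replicate 2 lay further above replicate 1 than replicate 1 lay above the highest of the rest. Bcl2l11 fell by 1.61 on the log2 scale with Tspan8 within MHCIIlo cells (SE 0.30, edgeR adjusted p = 0.00143) and by 1.37 with MHCII within Tspan8neg cells (SE 0.28, edgeR adjusted p = 0.00267). Among the other 3 subsets the log2 differences were between -0.24 and 0.29. The first call was lost without Tspan8posMHCIIlo replicate 1 (edgeR adjusted p = 0.0146) or replicate 2 (edgeR adjusted p = 0.0233). The second was lost without Tspan8negMHCIIlo replicate 2 (log2 -0.84, edgeR adjusted p = 0.0103), without Tspan8negMHCIIhi replicate 1 (edgeR adjusted p = 0.0286) or replicate 2 (edgeR adjusted p = 0.0359), and in a fit of its own 4 libraries (edgeR adjusted p = 0.0114). The thymocyte marker sum moved with Bcl2l11 in these libraries. It was 498 CPM where Bcl2l11 was at 61.8 CPM and 1404 CPM where Bcl2l11 was at 117 CPM. All 11 thymocyte markers were above 3 counts in both, as they were in both libraries of each other subset. The part of thymocyte RNA in the Bcl2l11 result was not tested. The sum of the cortical markers, though not each of them, was also highest in this subset. Their part in the results for Bcl2, Bcl2l1 and Bcl2l11 was not tested. Bcl2, which was likewise highest in this subset, was at 45.2 CPM in the first of these libraries and at 49.0 CPM in the second.

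Bbc3 encodes Puma, another p53 target. It was at 41.3 and 33.0 CPM in Tspan8negMHCIIlo, 73.4 and 61.1 in Tspan8negMHCIIhi, 37.6 and 46.3 in Tspan8posMHCIIhi, and 33.0 and 30.3 in Tspan8posMHCIIlo, so that only the Tspan8negMHCIIhi libraries stood apart. Its log2 difference with MHCII within Tspan8neg cells was 0.86 (SE 0.18, edgeR adjusted p = 0.00287), under the fold limit, and became a call at 1.01 without Tspan8negMHCIIlo replicate 1 or 1.07 without Tspan8negMHCIIhi replicate 2. Its log2 difference with Tspan8 within MHCIIhi cells was -0.68 (SE 0.17, edgeR adjusted p = 0.0105). Bid, which links death receptors to mitochondria once caspase-8 has cut it, was the lowest BH3-only gene in CPM in 7 of the 8 libraries, at 8.15 and 13.2, 15.4 and 9.36, 17.7 and 19.5, and 18.1 and 16.4 CPM in the same order. The 4 Tspan8pos libraries were above the 4 Tspan8neg libraries, with log2 differences of 0.66 (SE 0.32, edgeR adjusted p = 0.125) within MHCIIlo and 0.61 (SE 0.30, edgeR adjusted p = 0.132) within MHCIIhi. Bid shares exonic bases with Bcl2l13 on the opposite strand.

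Counted over the family, 3 of the 10 genes rose and 2 fell with Tspan8 within MHCIIlo cells, where 12.1% of all genes tested were called higher and 9.34% lower. With Tspan8 within MHCIIhi cells, 2 rose and 0 fell, against 11.0% and 7.45% of all genes, and the count was 1 without either Tspan8negMHCIIhi library or without Tspan8posMHCIIhi replicate 1. With MHCII within Tspan8neg cells, 2 rose and 2 fell, against 13.1% and 9.67%. By adjusted p alone, 5 of the 10 were higher and 2 lower in that comparison, against 15.5% and 13.9% of all genes. With MHCII within Tspan8pos cells no gene of the 10 was called, where 4.59% of all genes were called higher and 2.62% lower. DESeq2 also called 0 there, and 4 of the 10 had an unadjusted edgeR p under 0.05, which were Bak1, Bbc3, Pmaip1 and Bik, as did 29.5% of all genes. The median log2 difference of the 10 genes in these 4 comparisons was 0.37, -0.03, 0.40 and 0.20, against -0.03, -0.03, -0.04 and 0.01 over all genes tested.

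**Figure D2:**
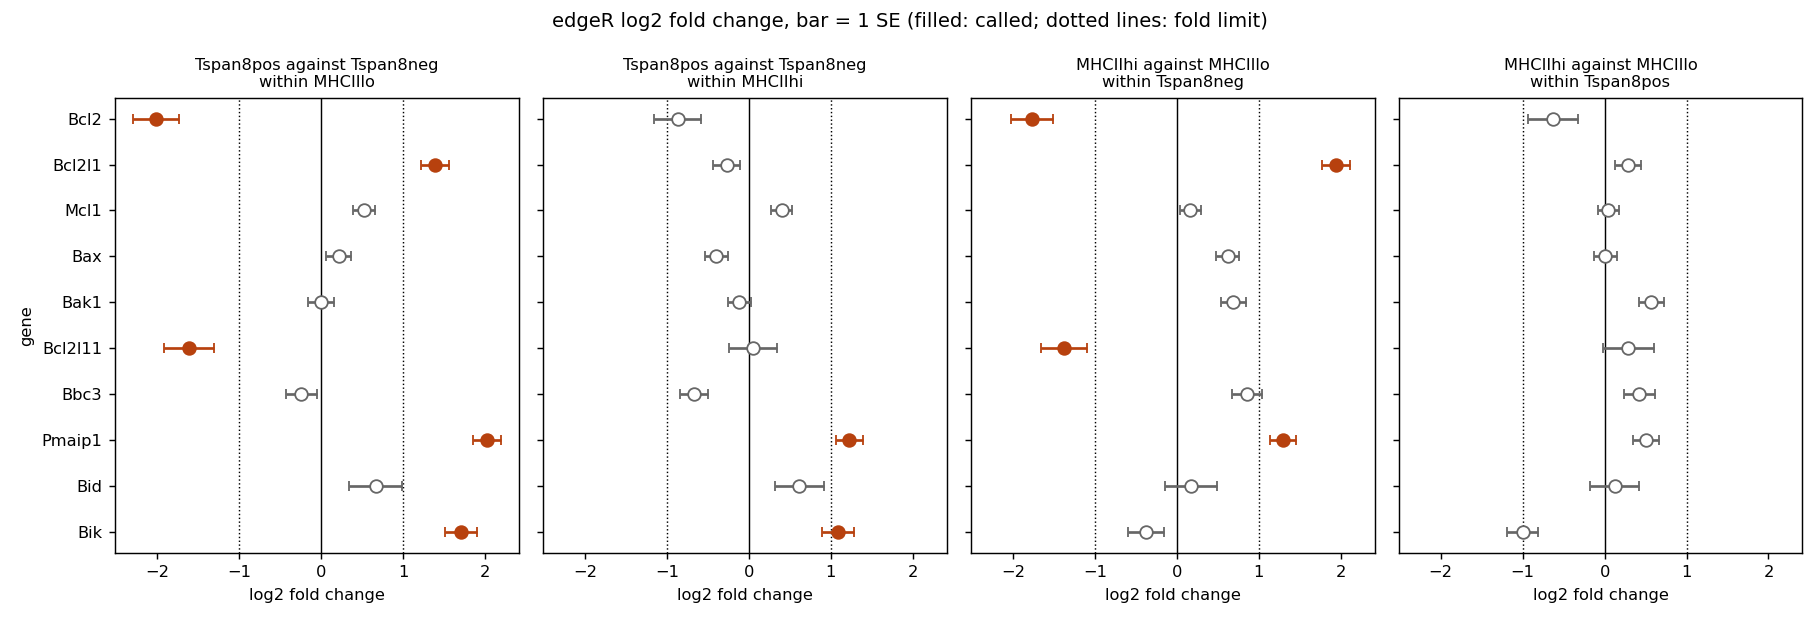
Log2 fold change (horizontal axes) of the 10 genes (vertical axis) in the 4 comparisons, from the edgeR fit of all 8 libraries; bars are 1 SE, filled points are called genes and dotted lines mark the fold limit. Called genes number 5, 2, 4 and 0 from left to right, and Bcl2 and Bcl2l1 lie on opposite sides of 0 in the first and the third panel.

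The 2 remaining pairs of subsets cross both sorting markers. Between Tspan8posMHCIIlo and Tspan8negMHCIIhi, 2 of the 10 genes were called, against 29.3% of all genes. Bik was higher in Tspan8posMHCIIlo by 2.09 on the log2 scale (SE 0.20, edgeR adjusted p = 8.85e-06) and Bbc3 lower by a log2 value of -1.10 (SE 0.19, edgeR adjusted p = 0.000518). Without Tspan8posMHCIIlo replicate 2 the Bbc3 call was lost (log2 -1.02, edgeR adjusted p = 0.0170) and the count was 1. Between Tspan8posMHCIIhi and Tspan8negMHCIIlo, 4 of the 10 were called, against 24.7% of all genes. Pmaip1 was higher by 2.53 (SE 0.17) and Bcl2l1 by 1.67 (SE 0.17), while Bcl2 was lower at -2.64 (SE 0.28) and Bcl2l11 at -1.32 (SE 0.29), with edgeR adjusted p from 8.35e-07 to 0.00308. That Bcl2l11 call was lost without Tspan8negMHCIIlo replicate 2 (log2 -0.78, edgeR adjusted p = 0.0156), without Tspan8posMHCIIhi replicate 1 (log2 -0.999, edgeR adjusted p = 0.0420) and in a fit of its own 4 libraries (edgeR adjusted p = 0.0146).

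To compare levels between genes, counts were divided by the median length of a gene's annotated transcripts and scaled to the same sum over all genes in every library, as in TPM. On this per-kilobase scale, the mean over the 8 libraries was 180.4 for Mcl1, 103 for Bax, 102 for Pmaip1, 81.6 for Bcl2l1, 76.6 for Bbc3, 42.5 for Bik, 30.2 for Bid, 29.2 for Bak1, 28.6 for Bcl2l11 and 4.81 for Bcl2. Mcl1 was first and Bcl2 last also with the longest transcript or the union of exons as the length, but 5 and 4 of the 10 ranks were kept with these, so the middle of the order depends on the length. The sum of the 10 genes was 485 and 526 in Tspan8negMHCIIlo and between 697 and 761 in the other 6 libraries. Guardians made up 35.5% to 40.7% of that sum in all 8 libraries. Effectors made up 21.7% to 24.4% in the Tspan8neg and 15.8% to 17.2% in the Tspan8pos libraries. Pmaip1 alone made up 5.84% to 6.94% in Tspan8negMHCIIlo, 10.1% to 11.8% in Tspan8negMHCIIhi, 20.7% to 24.4% in Tspan8posMHCIIhi and 16.2% to 18.6% in Tspan8posMHCIIlo. These shares move together because they are parts of 1 sum, and their size depends on the median length used.

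Ratios of 2 genes within a library do not depend on how libraries were scaled. Their size depends on the length used, here the median, while the order of the libraries does not. In Tspan8posMHCIIhi the means of Pmaip1 and Mcl1 were 171 and 203 by the median length. By the longest transcript they were 343 and 273, with Pmaip1 above Mcl1. The ratio of Bcl2l1 to Bcl2 per kilobase was 2.38 and 3.16 in Tspan8negMHCIIlo, 34.3 and 39.2 in Tspan8negMHCIIhi, 54.9 and 56.6 in Tspan8posMHCIIhi, and 20.4 and 38.8 in Tspan8posMHCIIlo. The ratio in every library of the last 3 subsets was therefore above both Tspan8negMHCIIlo libraries. The ratio of Pmaip1 to Mcl1, a BH3-only gene and its preferred guardian, was 0.176 and 0.266, 0.449 and 0.505, 0.881 and 0.808, and 0.570 and 0.657 in the same order, and no 2 subsets overlapped. The ratio of Bcl2l1 to Bcl2l11 was 0.678 and 0.515 in Tspan8negMHCIIlo and between 3.83 and 5.83 in the other 6 libraries. Bik to Bcl2l1 was lowest in Tspan8negMHCIIhi, at 0.178 and 0.159, and was 1.14 and 0.651 in Tspan8negMHCIIlo and 1.21 and 0.925 in Tspan8posMHCIIlo. Bax to Bak1 stayed between 2.81 and 4.75 in all 8 libraries. No test was made on these ratios.

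**Figure D3:**
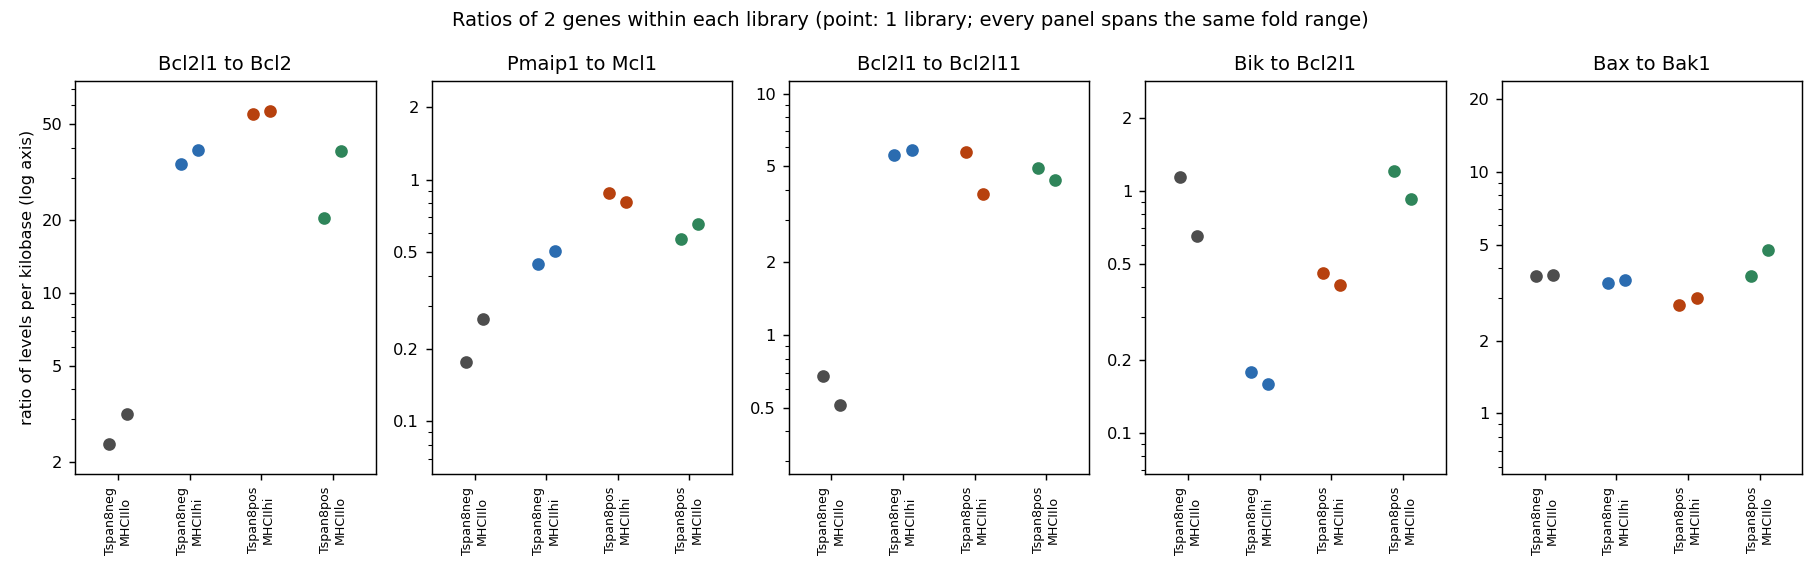
Ratio of the levels per kilobase of 2 genes (vertical axes, log scale, each spanning the same fold range) in the 4 subsets (horizontal axes); each point is 1 library. Bcl2l1 to Bcl2 rises from 2.38 and 3.16 in Tspan8negMHCIIlo to at least 20.4 in the other libraries, while Bax to Bak1 stays between 2.81 and 4.75.

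The genes whose log2 CPM followed each called member most closely over the 8 libraries were named by Pearson's r among 10711 protein-coding genes whose mean reached 10 CPM. They were Rcn3 (r = 0.984) and Nop53 (r = 0.982) for Bcl2, Cxcl2 (r = 0.997) and Adamts13 (r = 0.995) for Bcl2l1, Kat14 (r = 0.985) and Nt5c3b (r = 0.980) for Bcl2l11, Gipc2 (r = 0.995) and Casp14 (r = 0.995) for Pmaip1, and Abhd2 (r = 0.993) and Agap1 (r = 0.993) for Bik. Cxcl2, a chemokine, had mean levels of 22.9, 209.9, 156 and 109 CPM in the order Tspan8negMHCIIlo, Tspan8negMHCIIhi, Tspan8posMHCIIhi and Tspan8posMHCIIlo. For the members that were not called they were Lurap1l and Fam135a for Mcl1, D430042O09Rik and Nfasc for Bax, Mttp and Lhfpl2 for Bak1, Ola1 and Atf5 for Bbc3, and Dapk3 and Tsnax for Bid, with r from 0.958 to 0.996. The 8 points are 4 pairs of replicates, so r rests mostly on the 4 subset means. Depth also differed between libraries, most within Tspan8posMHCIIlo, with 1941518 and 7783841 total counts.

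Around the family, 65 further genes of apoptosis and survival were read from lists of the pathway, of which 64 were tested. Of these 64, 12 rose and 6 fell with Tspan8 within MHCIIlo cells and 8 rose and 10 fell with it within MHCIIhi cells. This was 28.1% of the 64 in each comparison, against 21.4% and 18.5% of all genes tested. With MHCII, 18 rose and 5 fell within Tspan8neg cells and 4 rose and 0 fell within Tspan8pos cells, which was 35.9% against 22.7% of all genes and 6.25% against 7.21%. The median log2 difference of the 64 genes was -0.06, -0.08, 0.22 and 0.18 in these comparisons, against -0.03, -0.03, -0.04 and 0.01 over all genes.

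Among the other family members, Bcl2a1b rose with Tspan8 within MHCIIlo cells (log2 2.44, SE 0.22, edgeR adjusted p = 7.20e-06) and with MHCII within Tspan8neg cells (log2 2.36, SE 0.21, edgeR adjusted p = 1.12e-05). It was at 11.2 and 15.3 CPM in Tspan8negMHCIIlo, 58.9 and 78.4 in Tspan8negMHCIIhi, 157 and 132 in Tspan8posMHCIIhi, and 70.4 and 74.1 in Tspan8posMHCIIlo. It was also called with Tspan8 within MHCIIhi cells (log2 1.07), Bcl2a1d rose in 3 of the 4 comparisons, all but that one, and Bcl2a1a in the first. The Bcl2a1 genes are guardians induced by NF-kB and are near-identical copies, between which estimated counts may be split, so each is uncertain on its own. Markers of dendritic cells and macrophages, which also express Bcl2a1 genes, were read in these CD45neg-sorted cells. They summed to 357 and 413 CPM in Tspan8negMHCIIhi and 285 and 282 in Tspan8posMHCIIhi against 48.0 to 104 in the MHCIIlo libraries. Lyz2 alone made up 279 and 331, and 244 and 237 CPM, of these MHCIIhi sums. Only Itgax went the other way within Tspan8neg cells, at 9.27 and 25.7 CPM in MHCIIlo against 4.16 and 6.15 in MHCIIhi. With Tspan8, where Bcl2a1b rose, no marker of this list was called higher. Flt3 (log2 -2.52) and Adgre1 (log2 -2.57) were called lower within MHCIIhi, where Xcr1 was at 0.02. Itgax was called lower within MHCIIlo (log2 -4.75, 0 and 6 counts in Tspan8posMHCIIlo), where Xcr1 (1.70) and Lyz2 (0.75) went up without a call. Ptprc, which encodes CD45, had means of 147 CPM in Tspan8negMHCIIlo, 17.3 in Tspan8negMHCIIhi, 21.2 in Tspan8posMHCIIhi and 63.7 in Tspan8posMHCIIlo. Which cells the marker transcripts came from, and their part in the Bcl2a1 results, was not tested. Bcl2l14 rose with Tspan8 within MHCIIlo cells, from 36.0 and 41.3 to 158 and 151 CPM (log2 1.99, SE 0.14, edgeR adjusted p = 1.76e-06). Bcl2l15, an atypical member of gut epithelium, was called higher in all 4 comparisons and was at 82.0 and 67.7 CPM in Tspan8posMHCIIhi against 5.62 and 12.7 in Tspan8negMHCIIlo. Bad, a BH3-only gene controlled by growth factor signals, was called in none, with log2 differences from -0.10 to 0.51.

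Among regulators of p53 and stress, Cdkn1a, the cell cycle inhibitor that p53 induces, rose with Tspan8 within MHCIIlo (log2 2.14, SE 0.12, edgeR adjusted p = 3.79e-07) and within MHCIIhi cells (log2 1.96, SE 0.12, edgeR adjusted p = 7.27e-07). Its level was 178 to 218 CPM in the 4 Tspan8neg and 709.9 to 953 CPM in the 4 Tspan8pos libraries. Phlda3, a further p53 target, rose in the same comparisons 2.16- and 2.46-fold, while Trp53 itself fell by 1.31 (SE 0.15) and 1.09 (SE 0.14). Zmat3, an RNA-binding p53 target, rose with MHCII within Tspan8neg cells by 1.496 (SE 0.19). Gadd45b rose there by 1.13 and fell by 1.28 with Tspan8 within MHCIIhi cells, Gadd45g fell by 1.07 and by 1.05 with MHCII within Tspan8neg and with Tspan8 within MHCIIlo cells, and Gadd45a was called in none of the 4. Myc, at 244 and 172 CPM in Tspan8negMHCIIlo and 121 to 133 CPM elsewhere, was called in none.

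With MHCII within Tspan8neg cells, where 22.7% of all genes were called, 3 of 6 caspase inhibitors, 4 of 10 death receptors and adaptors and 6 of 11 survival signal genes were called. Cflar, which blocks caspase-8, rose by 1.78 (SE 0.16), Birc3 by 1.23 (SE 0.17) and Birc2 by 1.11 (SE 0.17) on the log2 scale, with edgeR adjusted p up to 0.000379. Fas, the classical death receptor, rose by 1.49 (SE 0.25) and Tnfrsf10b, the mouse TRAIL receptor, by 1.39 (SE 0.19). Fas was at 54.5 and 27.8 CPM in Tspan8negMHCIIlo, 116 and 113 in Tspan8negMHCIIhi, 34.7 and 42.3 in Tspan8posMHCIIhi, and 28.0 and 26.8 in Tspan8posMHCIIlo, so that the Tspan8negMHCIIhi libraries stood above the other 6. Cd40, Rel, Relb, Nfkb2 and Tnfrsf11a, which encodes RANK, rose in the same comparison by log2 values from 1.16 to 2.41, and Tnfrsf1a, Tnfrsf1b and Ltbr fell by log2 values from 1.09 to 1.31. Of 11 apoptosome and caspase genes, 2 rose with Tspan8 within MHCIIlo cells, which was 18.2% against 21.4% of all genes. These were Casp9, the initiator caspase of the mitochondrial route (log2 1.04, SE 0.20, edgeR adjusted p = 0.00168), and Casp14, a caspase of cornifying epidermis. Casp14 had 2 and 5 counts in Tspan8negMHCIIlo and was at 6.65 and 7.56, 41.0 and 36.8, and 24.7 and 24.7 CPM in the other subsets.

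**Figure D4:**
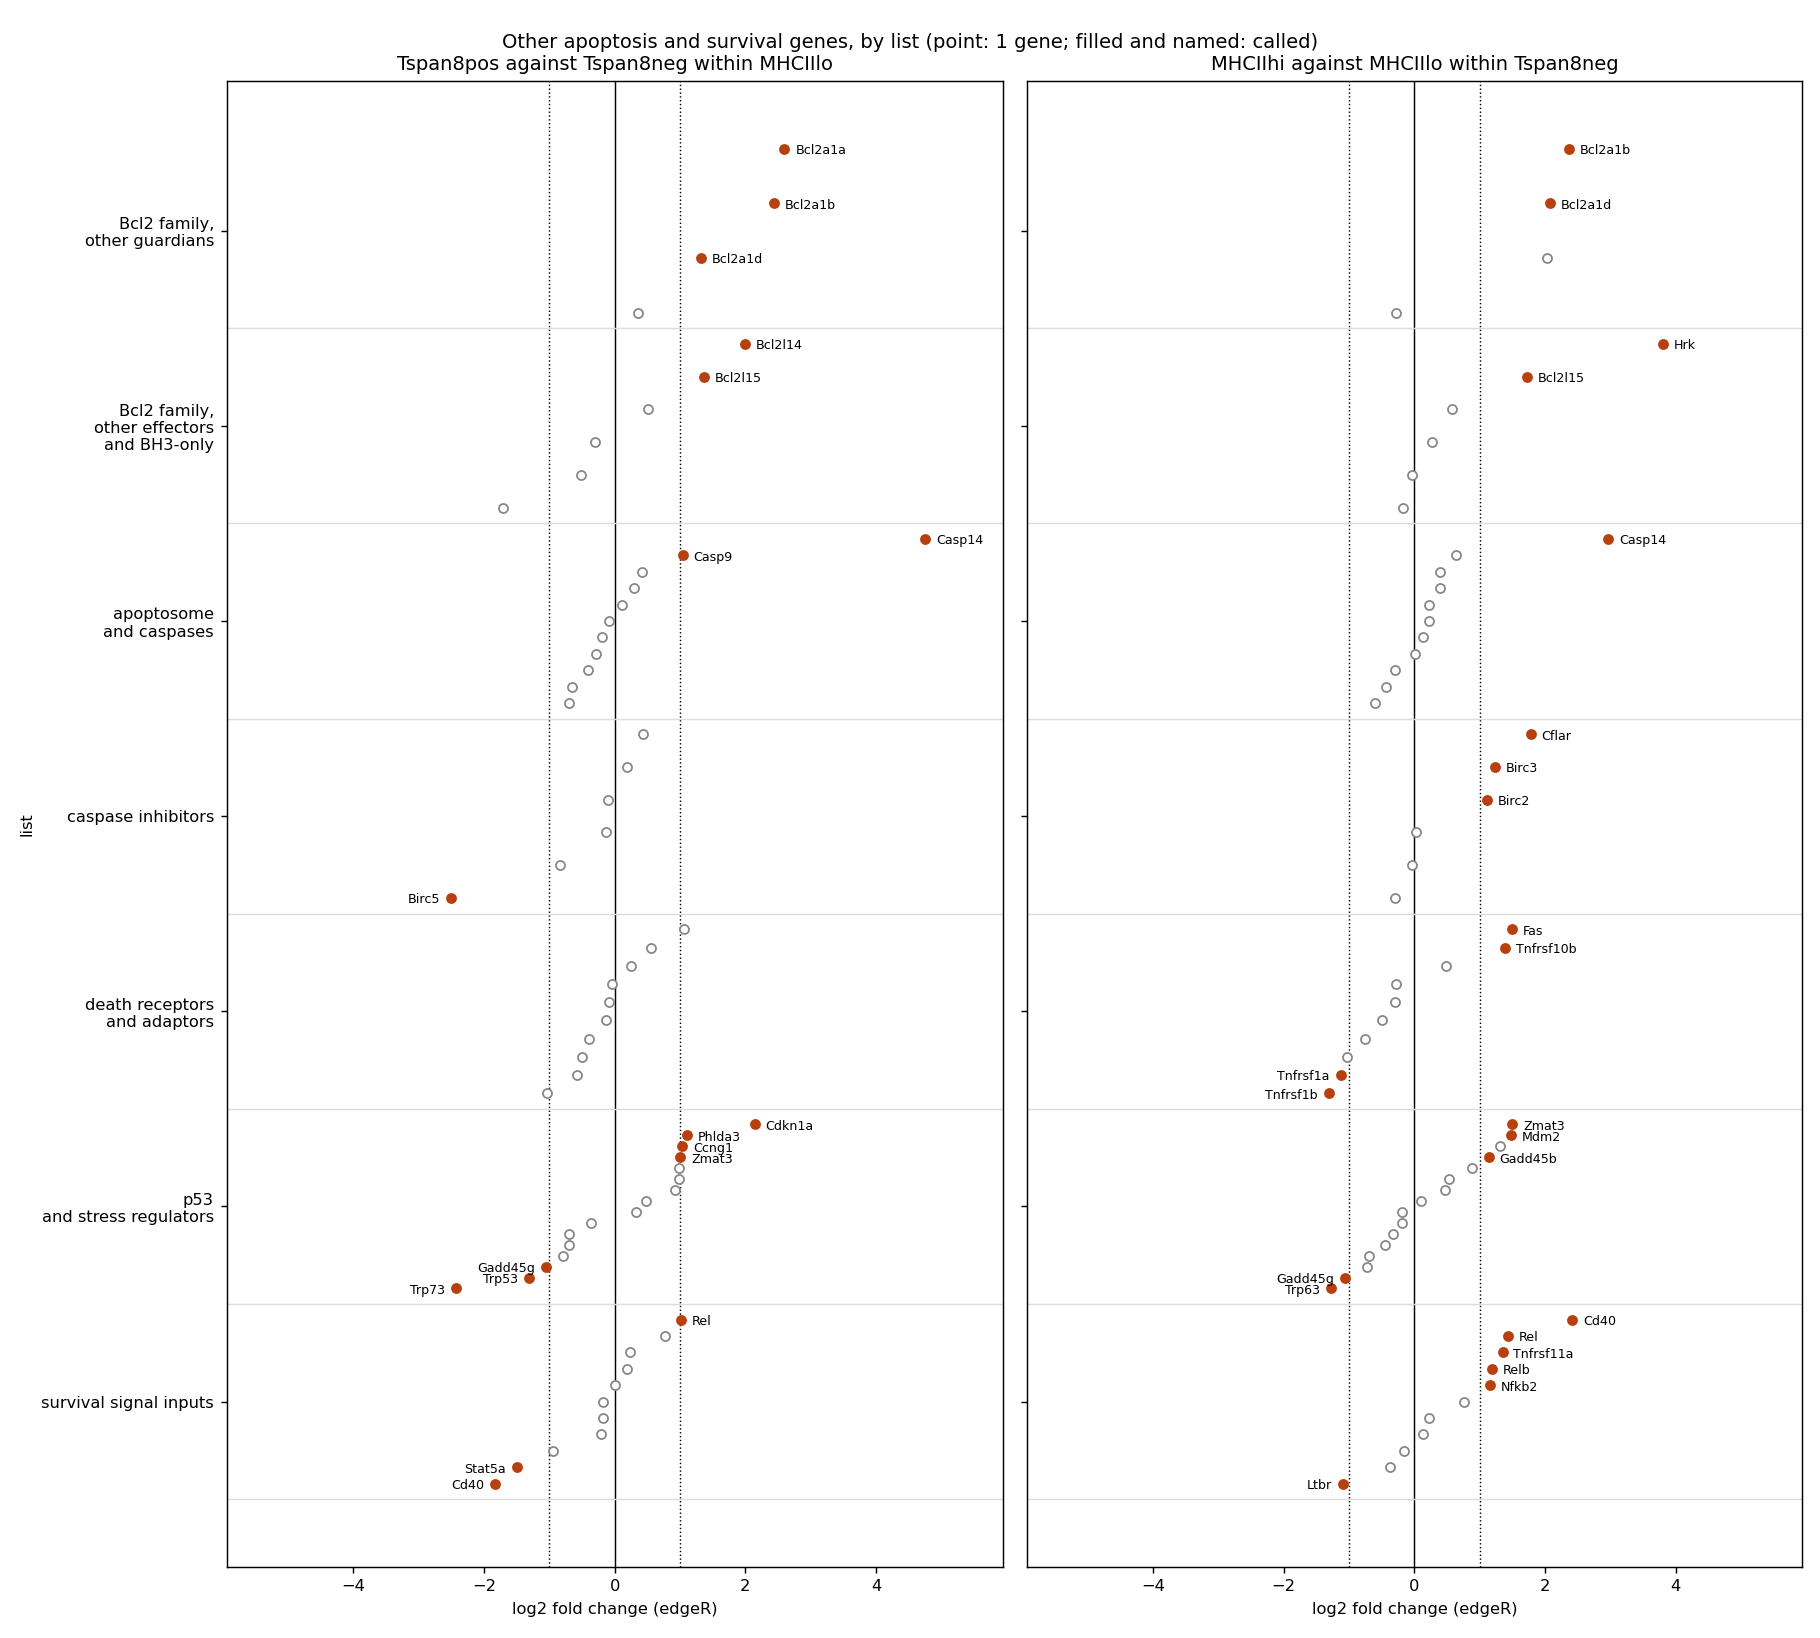
Log2 fold change (horizontal axes) of 64 other apoptosis and survival genes, grouped by list (vertical axis), in the 2 comparisons that start from Tspan8negMHCIIlo; each point is 1 gene, filled points with a name are called and dotted lines mark the fold limit. On the left 12 genes are called higher and 6 lower, and on the right 18 higher and 5 lower, against 21.4% and 22.7% of all genes called.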

How the data were processed

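RNA-seq was analysed for 8 libraries, 2 for each of 4 subsets of FACS-isolated mouse mTECs, grouped by the subset and replicate in their labels. The authors deposited estimated counts for every gene in a single table, as whole numbers without normalization, which per the paper's methods came from Salmon 1.8.0 on the Gencode vM10 transcriptome after 54 bp single-end sequencing. The authors' own tests used DESeq2 1.30.0. The methods describe pre-amplified, tagmented cDNA and the labels a stranded mRNA kit, so genes with an overlapping partner on the other strand are uncertain. Of 25466 identifiers, 25336 matched a symbol of GENCODE vM21 (GRCm38).

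The counts were tested with edgeR 4.0.16 under R 4.3.3, using limma 3.58.1: filterByExpr on the subsets, TMM scaling, a mean per subset, a quasi-likelihood F test in 1 fit of all 8 libraries (common dispersion 0.0240), and Benjamini-Hochberg adjustment over 17006 genes. All p-values are two-sided, and the SE comes from the size of the log2 fold change over the root of F. The scripts were tested on simulated data. Alternatives were DESeq2 1.42.0, its size factors, other filters, fits of 4 libraries, a replicate block and leaving out each library. Named are the 10 members, the 2 genes most correlated with each, and of each list up to 4 called genes per comparison by adjusted p and the genes the study names. Values of some listed genes are not reported here. Members, lists and thresholds were chosen with earlier results of these data known.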

Additional observations from a re-analysis of the deposited data

Results flagged for a closer look

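The effect of Tspan8 at low MHCII minus its effect at high MHCII was called (edgeR adjusted p under 0.01 and a log2 difference of at least 1) for Bcl2l1 and for 6 genes of the pathway lists, and these 7 were looked at again because their Tspan8 effects differed between the MHCII levels by a test of the difference itself. The difference was 1.66 for Bcl2l1, 1.20 for Rel, 1.13 for Bcl2l14, 1.34 for Zmat3 and 2.31 for Casp14, whose value rests on 2 and 5 counts in Tspan8negMHCIIlo. It was -1.60 for Trp63, the epithelial member of the p53 family, and -1.27 for Gadd45g. Over all genes tested 4.60% were called in this way. Bcl2l1, Rel, Bcl2l14, Zmat3 and Casp14 had lower levels in Tspan8negMHCIIlo than in the other 3 subsets, and Trp63 and Gadd45g had higher ones. Trp63 was at 142 and 110.1 CPM in Tspan8negMHCIIlo, 46.8 and 56.0 in Tspan8negMHCIIhi, 93.8 and 86.8 in Tspan8posMHCIIhi, and 73.7 and 71.3 in Tspan8posMHCIIlo.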

How the results depend on the processing

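Of 970 values of the 10 genes under 14 other settings, 923 kept direction and side of the call limits, 16 lost a call, 7 gained one and 24 changed sign, none of the last among the 18 called values and none with a log2 value above 0.29 in the reported fit. DESeq2 size factors moved the median of all genes by at most 0.083. Members called with MHCII within Tspan8neg numbered 7 without the fold limit, where 15.5% of all genes were higher and 13.9% lower. Within Tspan8pos, 1 was called without that limit, against 5.47% and 3.59% of all genes, and 1 with the replicate block (Bik, -1.001). Members called in the interaction numbered 2 under DESeq2, without a filter, with the replicate block and at an adjusted p of 0.05, the second being Bcl2l11 (-1.605, -1.598 and -1.657 in the first 3), and 0 to 2 with 1 library left out. Without the fold limit 4 were called between Tspan8posMHCIIlo and Tspan8negMHCIIhi, where 19.8% of all genes were higher and 17.7% lower by adjusted p alone. Leaving out 1 library gave 1 to 2 members called there and with Tspan8 within MHCIIhi. Of the 64 pathway genes, 28 were called without the fold limit with Tspan8 within MHCIIlo, against 15.8% of all genes higher and 12.2% lower. With MHCII within Tspan8pos, 8 were called without it, against 5.47% and 3.59%. Between Tspan8posMHCIIhi and Tspan8negMHCIIlo it was 27, against 18.2% and 14.7%. In the interaction 11 pathway genes were called with the replicate block and 11 at an adjusted p of 0.05, against 1236 and 1754 of all genes. Levels per length kept 5 ranks with the longest transcript and 4 with the union of exons. The causes of these changes were not tested, beyond the fewer samples or looser limits that define the settings.

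Sign changes were small. Bak1 with Tspan8 within MHCIIlo was -0.001 with at least 10 counts in 4 libraries, -0.002 with the replicate block and -0.087 to 0.121 with 1 library left out. Bcl2l11 with Tspan8 within MHCIIhi was -0.011 under DESeq2, -0.014 with its size factors and -0.328 to 0.378 with 1 library left out. The same omission gave -0.640 to 0.309 for Bcl2 between Tspan8posMHCIIlo and Tspan8negMHCIIhi, and with MHCII within Tspan8pos -0.004 to 0.112 for Mcl1, -0.031 to 0.102 for Bax and -0.095 to 0.621 for Bcl2l11. It gave -0.137 to 0.604 for Bid with MHCII within Tspan8neg, and in the interaction -0.022 to 0.234 for Mcl1 and -0.291 to 0.456 for Bid.

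Among all genes, 783 were called in the interaction but 1267 without a filter, 1236 with the replicate block, 1754 at an adjusted p of 0.05 and 189 to 1385 with 1 library left out. With MHCII within Tspan8pos, 1226 became 1858 at an adjusted p of 0.05 and 427 to 1671 with 1 library left out. The other 3 comparisons fell at lowest to 2273 of 3640, 2045 of 3143 and 2360 of 3866. Same-numbered libraries deviated from their subsets with correlations of 0.00402 to 0.0924 across subsets, each under the 0.1 required here for pairing, so the reported fit has no block. Whether they share mice or sort days was not given in the sources used here. The thymocyte marker sum was higher in replicate 2 than in replicate 1 of every subset. It was 498 and 1404 CPM in Tspan8negMHCIIlo, 125 and 209 in Tspan8negMHCIIhi, 91.0 and 135 in Tspan8posMHCIIhi, and 139 and 246 in Tspan8posMHCIIlo. With 2 libraries a subset and 29 counts for the rarest member, differences under the fold limit were often within the spread.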
